A study of Mus musculus with 4 samples.

Results

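The genes described here build ribosomes: 42 ribosome biogenesis and nucleolar genes, listed by name, were read through the array's probe sets whose only gene symbol was a member, averaged per gene. Of the 42, 41 were measured among 19938 genes in all, 39 of them through 1 probe set and 2 (Fbl and Wdr12) through 2. Noc2l, which takes part in large subunit assembly, had no probe set under its symbol and was not analysed here. The 4 samples, each measured as total RNA on a single 1-colour Affymetrix array, were the induced pluripotent stem (iPS) lines 178B5 and 492B4, the embryonic stem (ES) line v6.5 and mouse embryonic fibroblasts (MEF). The iPS lines and the MEF shared a mixed background of DBA/2, C57BL/6 and 129S4 mice, whereas ES v6.5 had an F1 background (129 with C57BL/6). Strain and cell type therefore cannot be told apart between ES v6.5 and either the iPS cells or the MEF. The 3 pluripotent lines were cultured in serum-containing ES cell medium over mitomycin-C-treated SNL feeder cells, a fibroblast-derived line, and the MEF in DMEM with serum, so medium and feeders differed between the lines and the MEF. No treatment was compared, the factors used to make the iPS lines are not given in the sources used here, and nothing names repeat cultures of any line.

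Ribosomes are made in the nucleolus. RNA polymerase I copies the ribosomal DNA into a long precursor RNA, small nucleolar ribonucleoproteins (snoRNPs) modify it and guide its folding, and large assemblies of processing factors cut it and load it with ribosomal proteins into a small and a large subunit. Stem cells in culture divide fast, and their nucleoli are known to be large and active. The gene encoding the GTP-binding nucleolar protein nucleostemin, Gnl3, was named for its abundance in stem cells.

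The deposited values had been centred so that the median of every probe set over the 4 arrays was 0. They are therefore differences between arrays on a log scale, taken here as log2, with no level and no background to set them against, and genes were compared by their differences only. When 1 array is lowest and another highest, this centring makes the values of the middle 2 arrays mirror images of each other, as the iPS pair often shows below. Cell identity was checked with marker lists. In limma's test all but 1 of 12 pluripotent cell markers were called higher in the lines (11 genes, median 5.55 log2), and all 12 were above the MEF in every line. Of 14 fibroblast markers 10 were called lower (median -3.49 log2), 3 without iPS 178B5 (744 of all 19938 genes), and all 14 were below the MEF in every line. Over all genes 7.9% were called higher and 9.71% lower.

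The comparison of the 3 pluripotent lines with the MEF asked which of these genes differ between pluripotent cells and fibroblasts. Every one of the 41 measured genes was above the MEF in all 3 lines, as were 30.1% of all genes. The groups thus did not overlap for any of the 41 as deposited. With arrays centred on reference genes 40 were above the MEF in all 3 lines, as were 21.7% of all genes. The median difference over the 41 genes was 1.26 log2, a 2.40-fold higher signal, and the median over all 19938 genes was -0.10 log2. Single genes lay between 0.45 log2 for Ubtf and 2.19 log2 for Rrp1b, with quartiles of 0.90 and 1.49 log2. By line, the median was 1.22 log2 in iPS 178B5, 1.13 log2 in iPS 492B4 and 1.35 log2 in ES v6.5. The 3 lines differed little from each other beside their distance from the MEF. The SD over the lines had a median of 0.20 log2, where that of all genes was 0.16 log2. It reached at most 0.59 log2 among the 41, in Gar1. In bulk RNA, fewer cells making a transcript and less of it in each cell cannot be told apart.

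With limma, a gene was called when its Benjamini-Hochberg adjusted p over all genes was under 0.05 and its difference at least 1 log2. By that rule 27 of the 41 genes rose and 0 fell, where 7.9% of all genes were called higher and 9.71% lower. The adjusted p of the called genes ran between 0.00596 and 0.0485. The 14 others were also above the MEF, and 34 of the 41 had an unadjusted p under 0.05 (37.8% of all genes did). Without iPS 178B5 only 5 of the 41 were called (Rrp1b, Heatr1, Nhp2, Utp15 and Ddx10), where 3.07% of all genes were called higher. The 22 lost genes then had adjusted p between 0.0546 and 0.151, while the median difference of the 41 was 1.23 log2. The spread in these tests came from the 3 lines, and the fit gave the single MEF array that same spread. With the arrays centred on reference genes 19 of the 41 were called (6.03% of all genes higher).

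**Figure D1:**
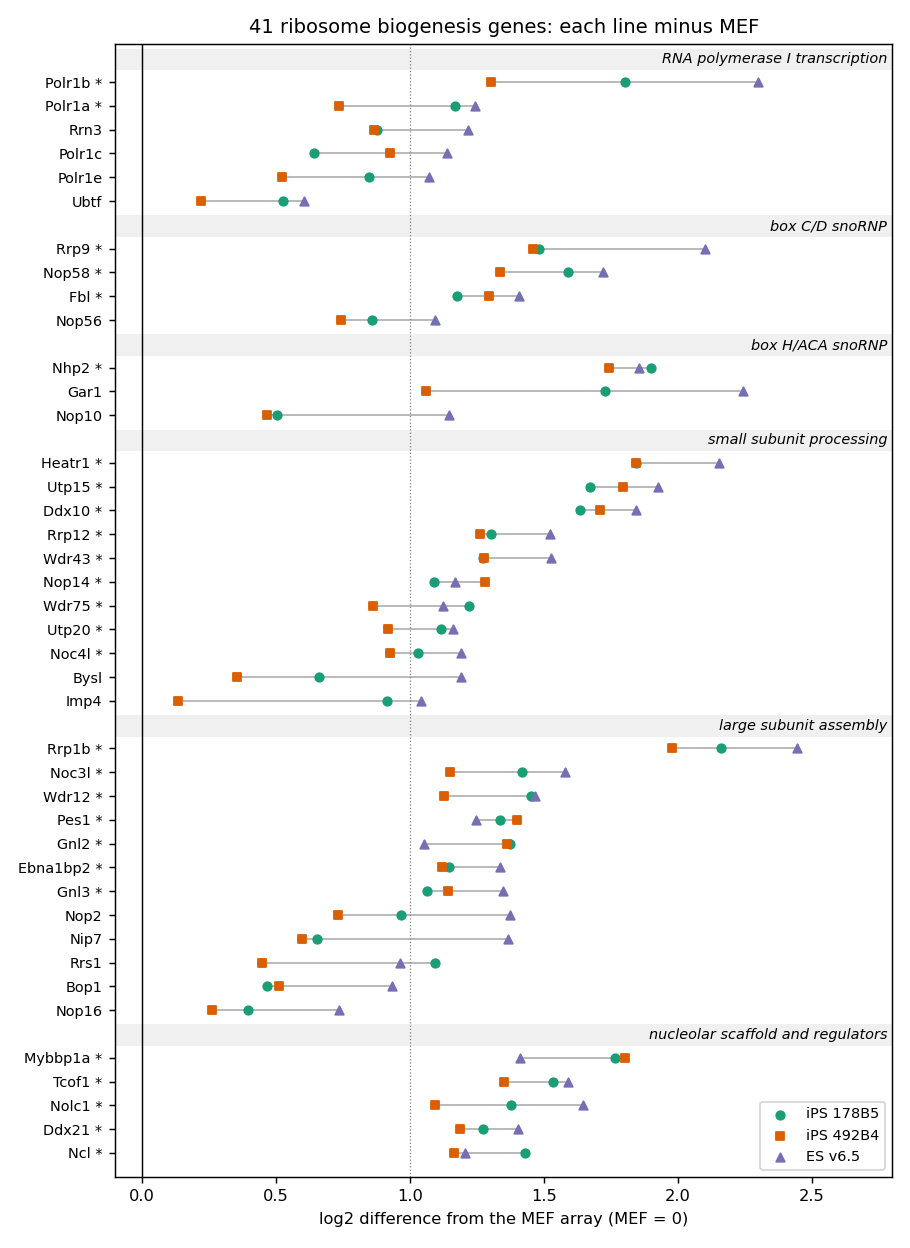
Log2 difference from the MEF array (horizontal axis, MEF at 0) for the 41 measured ribosome biogenesis genes, grouped by role; circles are iPS 178B5, squares iPS 492B4, triangles ES v6.5, the grey line spans the 3 lines, a star marks genes called in the lines against MEF, and the dotted line is 1 log2. All points lie above 0, and 24 genes have every line at 1 log2 or more (7.03% of all genes do). ES v6.5 is the highest array for 33 genes (4394 of all 19938 genes).

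Of the 6 genes of RNA polymerase I transcription, 2 rose, where 7.9% of all genes did, and the median was 0.94 log2. Polr1b, the second-largest subunit of the enzyme, stood at 0.25 on iPS 178B5, -0.25 on iPS 492B4 and 0.74 on ES, against -1.55 on MEF. All lines were well above the MEF. The single ES array read highest, and the 2 iPS arrays were themselves 0.50 log2 apart. The difference was 1.80 ± 0.50 log2 (SD, n = 3 lines; adjusted p = 0.043, limma), and it was not called without iPS 178B5 (0.117) or with the arrays centred on reference genes (0.0509). Polr1a, the largest and catalytic subunit, had 0.22, -0.22 and 0.29 on the same 3 lines, against -0.95 on MEF. It rose by 1.05 ± 0.27 log2 with an adjusted p of 0.0485, and was lost without iPS 178B5 (0.151), with robust moderation (0.0502), without ES (0.95 log2) or with reference centring (0.85 log2). Rrn3, the factor that recruits the enzyme to the promoter in response to growth signals, had 0.0056, -0.0056 and 0.34, against -0.87 on MEF. At 0.99 ± 0.20 log2 it passed the adjusted p (0.0337) but not the minimum difference, and it was called at 1.06 log2 with each array's median set equal. Polr1c, a subunit shared with RNA polymerase III, at 0.90 ± 0.25 log2 and Polr1e at 0.81 ± 0.28 log2 were not called. Ubtf, which binds along active ribosomal DNA, had 0.15, -0.15 and 0.23, against -0.37 on MEF. Its 0.45 ± 0.20 log2 (adjusted p = 0.197) was the smallest difference of all 41 genes.

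Box C/D snoRNPs methylate the ribose of ribosomal RNA, and 3 of their 4 genes rose (7.9% of all genes), with a median of 1.42 log2. Rrp9, the protein specific to the U3 snoRNP, had 0.01 on iPS 178B5, -0.01 on iPS 492B4 and 0.63 on ES, against -1.47 on MEF. Both iPS lines lay together and the ES line above them, and the difference from MEF was 1.68 ± 0.36 log2 (adjusted p = 0.0265). Nop58, a core protein, had 0.13, -0.13 and 0.26, against -1.46 on MEF, and rose by 1.55 ± 0.20 log2 (adjusted p = 0.0125). Fbl, the methyltransferase fibrillarin, had -0.06, 0.06 and 0.17, against -1.23 on MEF, and rose by 1.29 ± 0.12 log2 (adjusted p = 0.0116). Its 2 probe sets gave 1.20 and 1.38 log2. Nop56, the partner of Nop58 in the same particle, had 0.06, -0.06 and 0.29, against -0.80 on MEF. Its difference of 0.90 ± 0.18 log2 fell under the minimum, though its adjusted p was 0.037. Without iPS 178B5 0 of the 4 were called by limma (3.07% of all genes were called higher), with adjusted p between 0.0549 and 0.131.

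Box H/ACA snoRNPs turn uridine into pseudouridine in ribosomal RNA and share their core proteins with telomerase. Nhp2 had 0.10 on iPS 178B5, -0.06 on iPS 492B4 and 0.06 on ES, against -1.80 on MEF. The lines lay close together and far above the MEF, and Nhp2 rose by 1.83 ± 0.08 log2 with the lowest adjusted p of the 41 genes (0.00596). Gar1 had 0.33, -0.33 and 0.85, against -1.39 on MEF, the widest spread over the lines. At 1.68 ± 0.59 log2 it was not called (adjusted p = 0.0746), but was without ES (1.39 log2) or without iPS 492B4 (adjusted p = 0.0322). Nop10, the smallest core protein, had 0.02, -0.02 and 0.66, against -0.48 on MEF, with a difference of 0.70 ± 0.38 log2 (adjusted p = 0.20). The gene for the pseudouridine synthase of the same particle, Dkc1, which was not among the 42, had -0.0015, 0.0015 and 0.35, against -2.14 on MEF, and rose by 2.25 ± 0.20 log2 (adjusted p = 0.00696; 0.0403 without iPS 178B5).

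Small subunit processing factors rose in 9 of 11 cases (7.9% of all genes), with a median of 1.18 log2. Without iPS 178B5 3 of the 9 were called, where 3.07% of all genes were called higher. Heatr1, Utp15, Wdr43 and Wdr75 belong to the subcomplex of the small subunit processome that joins the precursor RNA earliest. Heatr1 had -0.00057 on iPS 178B5, 0.00057 on iPS 492B4 and 0.31 on ES, against -1.84 on MEF, and rose by 1.95 ± 0.18 log2 (adjusted p = 0.00796), the largest difference of the group. Utp15 had -0.06, 0.06 and 0.19, against -1.73 on MEF, and rose by 1.80 ± 0.13 log2 (adjusted p = 0.0071). In both genes the lines lay within a narrow band far from the MEF. Wdr43 rose by 1.36 ± 0.15 log2 and Wdr75 by 1.07 ± 0.18 log2. With reference centring Wdr75 stood at 0.87 log2, under the minimum. Ddx10, a helicase that in yeast releases a small nucleolar RNA from the precursor, had -0.04, 0.04 and 0.17, against -1.67 on MEF, and rose by 1.73 ± 0.10 log2 (adjusted p = 0.00691).

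Rrp12, known in yeast for the export of pre-ribosomes, rose by 1.36 ± 0.14 log2. Nop14 rose by 1.18 ± 0.10 log2 and its binding partner Noc4l by 1.05 ± 0.13 log2, while the very large scaffold protein gene Utp20 rose by 1.06 ± 0.13 log2. These 3 stood at 0.98, 0.85 and 0.86 log2 with reference centring and were then not called, and Noc4l was not called without ES either (0.98 log2). The 2 genes that were not called were the most variable of the group. Imp4, a protein of the U3 particle, had 0.39 on iPS 178B5, -0.39 on iPS 492B4 and 0.52 on ES, against -0.52 on MEF. The iPS 492B4 array was only 0.14 log2 above the MEF here, the closest approach of any line to the MEF among the 41 genes, and the difference was 0.70 ± 0.49 log2 (adjusted p = 0.288). Bysl, which acts on late small subunit precursors, had 0.15, -0.15 and 0.68, against -0.51 on MEF, with 0.73 ± 0.42 log2 (adjusted p = 0.216).

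Large subunit assembly genes rose in 7 of 12 measured cases (7.9% of all genes), with a median of 1.19 log2. Without iPS 178B5 only 1 of the 7 was called, where 3.07% of all genes were called higher, so that count rests on 1 gene. Rrp1b, a nucleolar relative of the yeast large subunit factor Rrp1, had the largest difference of all 41 genes. It stood at 0.09 on iPS 178B5, -0.09 on iPS 492B4 and 0.37 on ES, against -2.07 on MEF, a rise of 2.19 ± 0.24 log2 (4.57-fold; adjusted p = 0.00854). Pes1, Wdr12 and Bop1 encode the 3 proteins of the PeBoW complex, which is needed to mature the large subunit RNAs. Pes1 had 0.04, 0.10 and -0.04, against -1.29 on MEF, and rose by 1.33 ± 0.08 log2 (adjusted p = 0.0092). Wdr12 rose by 1.35 ± 0.19 log2, with 1.38 and 1.32 log2 at its 2 probe sets. Bop1 had -0.02, 0.02 and 0.44, against -0.49 on MEF, and its 0.64 ± 0.26 log2 was not called (adjusted p = 0.134). The partners of 1 complex thus differed in size of change, a difference between genes that was not tested.

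The nucleolar GTPase genes both rose. Gnl3, nucleostemin, had -0.04 on iPS 178B5, 0.04 on iPS 492B4 and 0.24 on ES, against -1.10 on MEF, and rose by 1.18 ± 0.15 log2 (adjusted p = 0.0159). Gnl2, whose yeast relative acts on late nuclear large subunit precursors, had 0.17, 0.15 and -0.15, against -1.21 on MEF, and rose by 1.26 ± 0.18 log2 (adjusted p = 0.0173). Noc3l rose by 1.38 ± 0.22 log2 and Ebna1bp2 by 1.20 ± 0.12 log2, though with reference centring Gnl3 and Ebna1bp2 came just under 1 log2 and were not called. The 4 further genes were above the MEF but not called: Nop2, which methylates cytosine in ribosomal RNA, at 1.02 ± 0.33 log2 (adjusted p = 0.0704), Nip7 at 0.87 ± 0.43 log2, Rrs1 at 0.84 ± 0.34 log2 and Nop16 at 0.46 ± 0.25 log2. Nop16 had 0.07, -0.07 and 0.41, against -0.33 on MEF, the smallest difference of the group.

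All 5 genes of nucleolar scaffold proteins and regulators rose (7.9% of all genes), with a median of 1.37 log2 and a range of 1.27 to 1.66 log2. All 5 rose with reference centring too (6.03% of all genes). Without iPS 178B5 0 were called by limma (3.07% of all genes were called higher), with adjusted p between 0.0546 and 0.0935. Mybbp1a, a nucleolar protein that binds transcription factors, had 0.18 on iPS 178B5, 0.21 on iPS 492B4 and -0.18 on ES, against -1.59 on MEF. It rose by 1.66 ± 0.22 log2 (adjusted p = 0.0123). Tcof1, the protein treacle that supports ribosomal DNA transcription, rose by 1.49 ± 0.12 log2, and its structural relative Nolc1 by 1.37 ± 0.28 log2. Ddx21, a helicase, rose by 1.29 ± 0.11 log2. Ncl, nucleolin, among the most abundant nucleolar proteins, had 0.24, -0.02 and 0.02, against -1.19 on MEF, and rose by 1.27 ± 0.14 log2 (adjusted p = 0.0138).

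Other genes of the pathway were read from lists. Of 47 further small subunit processome genes 24 rose and 0 fell (median 1.00 log2), among them Nol11 at 1.85 log2, Utp14a at 1.69 log2, the RNA acetyltransferase gene Nat10 at 1.67 log2 and Pwp2 at 1.55 log2. Of 53 further large subunit genes 29 rose and 0 fell (median 1.14 log2), among them the remodelling ATPase gene Mdn1 at 2.03 log2, Urb1 at 2.00 log2, Ftsj3 at 1.76 log2 and Urb2 at 1.69 log2. Of 12 further snoRNP genes 7 rose, with the assembly factors Shq1 at 1.91 log2, Ruvbl2 at 1.85 log2 and Nufip1 at 1.68 log2 beside Dkc1. Of 14 genes of the RNA exosome and its cofactors, which trim precursor RNAs, 5 rose (median 0.84 log2), led by the nuclease gene Dis3 at 1.59 log2. Of 18 further RNA polymerase I genes 3 rose (median 0.59 log2): Taf1d at 1.74 log2 and the chromatin factors Baz2a at 1.55 log2 and Kdm2b at 1.34 log2. Over all genes 7.9% were called higher. Without iPS 178B5 these counts were 2, 9, 4, 1 and 0, in the order of the lists, where 3.07% of all genes were called higher. The small subunit list then came near that share, the exosome list held only 1 called gene and the RNA polymerase I list 0.

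The genes for the proteins of the ribosome itself were counted in the same way. By limma 0 of 58 measured cytosolic ribosomal protein genes were called, where 7.9% of all genes were called higher and 9.71% lower. An unadjusted p under 0.05 was reached by 9 (15.5%, against 37.8% of all genes). With robust moderation or without any 1 line 0 were called. With no minimum difference Rpl4 was called higher, at 0.66 log2 (adjusted p = 0.0462). Their median difference was 0.21 log2, 0.28 log2 with each array's median set equal and 0.01 log2 with reference centring. One of the 13 reference genes, Rplp0, is itself a ribosomal protein gene and its value was the reference median on MEF. Centring on the 12 others alone, which was added after seeing the data, gave a median of -0.03 log2. In all 3 lines 47 of the 58 lay above the MEF as deposited (30.1% of all genes). With reference centring 20 lay above (21.7% of all genes) and 20 below (12710 of all 19938 genes). Without Rplp0 18 lay above (20.6% of all genes) and 24 below (13085 of all 19938 genes). The direction of the ribosomal protein genes thus depends on the scaling. For the 41 ribosome biogenesis genes the number above the MEF in all lines was 41 as deposited, 41 with equal array medians, 40 with reference centring and 38 without Rplp0. Over all genes the shares were 30.1%, 35.7%, 21.7% and 20.6%, in the same order. The arrays held no usable probe set for 27 of the 85 listed ribosomal protein symbols, and these genes have many processed copies in the genome that a probe may also match.

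**Figure D2:**
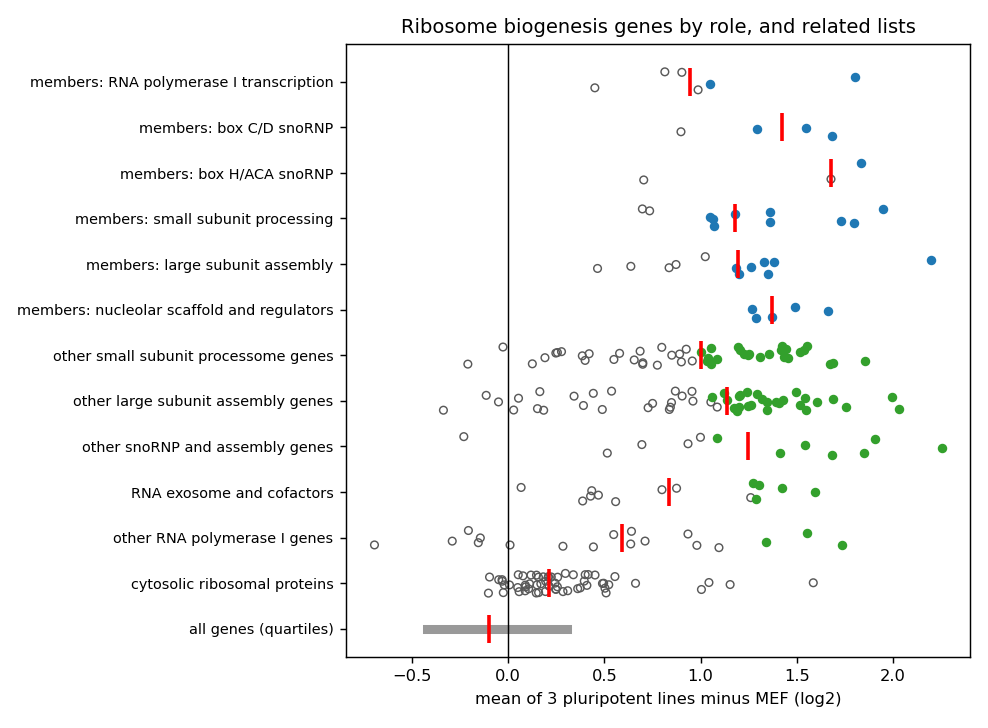
Mean log2 difference of the 3 pluripotent lines from MEF (horizontal axis), 1 point per gene, for the ribosome biogenesis genes by role (blue when called) and for related lists (green when called; open circles not called); red bars are medians and the grey bar spans the quartiles of all genes. Ribosome biogenesis lists centre between 0.59 and 1.68 log2, and the 58 ribosomal protein genes on 0.21 log2 with none called.

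Values of genes tied to growth were also read, and their part in the result was not tested. Of 15 proliferation markers 11 rose, where 7.9% of all genes did, with a median of 1.44 log2. Those that rose included Bub1 at 2.998 log2, Mcm3 at 2.64 log2 and Mcm6 at 2.20 log2. Without iPS 178B5 5 were called, where 3.07% of all genes were called higher. All 15 lay above the MEF in every line (30.1% of all genes). In the Myc family, whose transcription factors are known to drive ribosome biogenesis genes, 2 of 11 genes rose and 1 fell. Over all genes 7.9% were called higher and 9.71% lower, and counts this small lie near those shares. The median of the family was -0.15 log2, against -0.10 log2 over all genes, and 5 of the 11 lay above the MEF in every line. Mycn had 0.47 on iPS 178B5, -0.25 on iPS 492B4 and 0.25 on ES, against -4.26 on MEF, and rose by 4.41 ± 0.37 log2 (adjusted p = 0.00548). Mxd4, a repressor that competes for the shared partner Max, had -0.01, -0.0023 and 0.0023, against 2.95 on MEF, and fell by 2.95 log2 (adjusted p = 0.00479). Mga, which also pairs with Max, rose by 1.07 log2, and was not called with reference centring (0.87 log2), without iPS 492B4 (0.98 log2) or without iPS 178B5. Myc itself had -0.26, -1.31 and 0.40, against 0.26 on MEF. Its lines lay on both sides of the MEF, and the difference of -0.65 log2 was not called (adjusted p = 0.545).

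Promoter letters were read because these genes moved together. RefSeq promoter windows of 300 bases (250 before and 50 after the annotated start, build GRCm38.p6) were at hand for 36 of the 42 genes. The E-box CACGTG, the letters that Myc and Max bind, stood in 7 of 36 (19.4%), where 8.09% of all 27025 genes with a window and 9.5% of the 15614 also measured held it. The ETS core CCGGAAG, on either strand, stood in 13 of 36 (36.1%), where 9.93% of all and 13.6% of measured genes held it, and the GC box GGGCGG on either strand in 30 of 36 (83.3%), where 38.2% of all and 52.9% of measured genes did. Of 87 further small and large subunit genes 23.0% held the E-box, 47.1% the ETS core and 60.9% the GC box. Of cytosolic ribosomal protein genes 9.52% held the E-box, 41.3% the ETS core and 61.9% the GC box. A 10-letter NRF1 consensus stood in 0 of 36 windows and in 1.07% of all genes, and the YY1 letters AAGATGGCG in 1 of 36 and in 1.64% of all genes, each on both strands. These are matches of letters, described without a test. The 7 measured genes with an E-box had a median difference from MEF of 1.06 log2 (0.70 to 1.66 log2, 4 called), and the 28 without it 1.24 log2 (0.45 to 2.19 log2, 19 called), so the 2 ranges overlap. For the ETS core, the 12 measured genes with it had a median of 1.287 log2 (0.81 to 1.95 log2, 6 called). The 23 without it had 1.185 log2 (0.45 to 2.19 log2, 17 called), so these ranges overlap too.

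The windows below are shown for these reasons: Heatr1 and Nhp2 are among the largest rises and hold an ETS core, Mybbp1a has the largest difference of those with an E-box, and Nop2 and Rrn3 are the 2 that hold both motifs. Capitals mark CACGTG, and CCGGAAG or its reverse CTTCCGG. Each is written 5′ to 3′ on the strand of the gene.
Heatr1 (chr13:12395125-12395424, plus strand): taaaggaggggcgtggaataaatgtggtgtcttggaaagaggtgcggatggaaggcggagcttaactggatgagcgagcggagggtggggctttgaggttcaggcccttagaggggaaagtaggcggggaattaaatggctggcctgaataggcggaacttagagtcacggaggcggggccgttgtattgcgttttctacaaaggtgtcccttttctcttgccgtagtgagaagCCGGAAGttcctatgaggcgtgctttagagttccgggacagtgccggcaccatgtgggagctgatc
Nhp2 (chr11:51619523-51619822, plus strand): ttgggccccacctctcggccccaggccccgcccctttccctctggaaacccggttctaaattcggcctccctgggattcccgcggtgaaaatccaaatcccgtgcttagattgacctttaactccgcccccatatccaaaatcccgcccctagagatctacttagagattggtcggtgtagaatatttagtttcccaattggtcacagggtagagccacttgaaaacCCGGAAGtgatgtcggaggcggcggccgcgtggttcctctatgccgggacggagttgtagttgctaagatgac
Mybbp1a (chr11:72441077-72441376, plus strand): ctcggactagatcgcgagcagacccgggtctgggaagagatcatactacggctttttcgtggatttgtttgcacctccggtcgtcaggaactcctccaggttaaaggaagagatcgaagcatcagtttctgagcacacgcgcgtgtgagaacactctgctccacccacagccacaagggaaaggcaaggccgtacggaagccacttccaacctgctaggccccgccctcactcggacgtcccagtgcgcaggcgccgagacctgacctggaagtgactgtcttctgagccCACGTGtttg
Nop2 (chr6:125131633-125131932, plus strand): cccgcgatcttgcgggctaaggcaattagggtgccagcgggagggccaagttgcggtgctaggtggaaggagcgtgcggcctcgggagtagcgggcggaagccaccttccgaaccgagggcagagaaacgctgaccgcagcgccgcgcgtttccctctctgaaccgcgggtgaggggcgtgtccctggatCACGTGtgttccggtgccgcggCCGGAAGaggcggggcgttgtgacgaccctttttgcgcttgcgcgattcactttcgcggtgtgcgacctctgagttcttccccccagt
Rrn3 (chr16:13780449-13780748, plus strand): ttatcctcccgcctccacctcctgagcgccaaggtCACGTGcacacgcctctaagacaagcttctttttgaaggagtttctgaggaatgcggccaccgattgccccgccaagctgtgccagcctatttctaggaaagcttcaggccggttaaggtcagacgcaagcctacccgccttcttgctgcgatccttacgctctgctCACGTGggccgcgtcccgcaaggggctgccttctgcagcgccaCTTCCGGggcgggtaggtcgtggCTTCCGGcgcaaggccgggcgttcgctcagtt
In Heatr1 and Nhp2 the ETS letters begin at -16 and -23 bases from the start. Rrn3 holds 2 E-boxes, at -215 and -48 bases from the start, and 2 ETS cores.

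**Figure D3:**
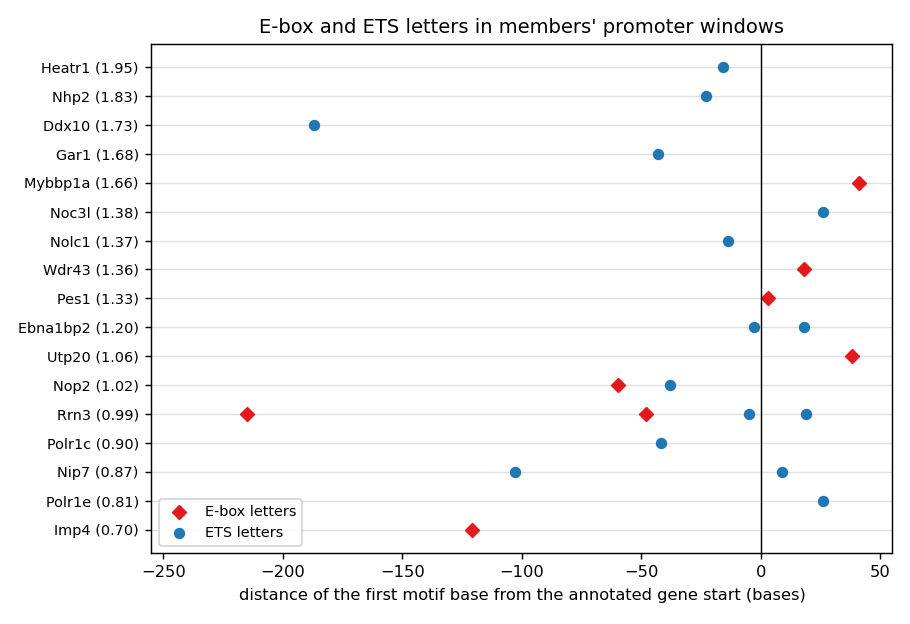
Distance of the first base of each match from the annotated gene start (horizontal axis, in bases, start at 0) for the 17 measured genes with an E-box (diamonds) or ETS core (circles) in the window; genes run down in order of their difference from MEF, given in log2 beside the name. The genes drawn lie between 0.70 log2 in Imp4 and 1.95 log2 in Heatr1.

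The iPS lines and the ES line were also set against the MEF separately, in a fit with 3 groups in which the spread came from the 2 iPS lines. These comparisons share the MEF array. Of the 41 genes 26 rose in iPS against MEF and 36 in ES against MEF, with 0 lower in either, where 9.94% and 9.14% of all genes were called higher and 11.2% and 10.9% lower. Their medians were 1.23 log2 for iPS and 1.35 log2 for ES. ES against MEF sets 1 array against 1, with the spread of the iPS lines assumed for both, and these arrays differ in strain as well. The shares of all genes above are for the values as deposited. With reference centring fewer of the 41 genes were called in each of these comparisons. By role, 1 of 6 RNA polymerase I genes rose in iPS against MEF and 5 of 6 in ES against MEF, while all 5 scaffold genes rose in both; that the counts differ was not tested in itself.

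The iPS lines were then compared directly with the embryo-derived line. Both iPS lines lay below the ES line for 33 of the 41 genes (47.7% of all genes) and both above it for 3 (6189 of all 19938 genes). For 5 the ES line lay between them (4236 of all 19938 genes). The median of the iPS mean minus ES was -0.25 log2, against -0.06 log2 over all genes, and the count was 32 with each array's median set equal and 33 with reference centring. For 33 of the 41 the iPS mean was within 0.5 log2 of ES, where 85.3% of all genes were. The further lists leaned the same way. Both iPS lines lay below ES for 31 of 47 small subunit, 33 of 53 large subunit and 10 of 12 snoRNP genes. They did so for 14 of 18 RNA polymerase I genes and 10 of 14 exosome genes. In limma's test 0 of the 41 genes were called (0.0% of all genes), with 7 (17.1%) at an unadjusted p under 0.05, near the 15.4% of all genes, and a smallest adjusted p of 0.179, and robust moderation also called 0. Simulated data for iPS against MEF held few changed genes, and this 3-group fit recovered none of them. In the real data the same fit did call genes for iPS against MEF. The simulation therefore cannot say what the test of iPS against ES would miss. With 1 residual degree of freedom the absence of calls carries little information. The counts therefore describe 3 arrays, and the ES line differs from the iPS lines in strain as well.

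The largest negative differences, iPS minus ES, were those of Gar1 at -0.85 log2, Polr1b at -0.74 log2 and Nip7 at -0.74 log2. Nip7, which in yeast is needed to mature the large subunit, had 0.03 on iPS 178B5 and -0.03 on iPS 492B4, against 0.74 on ES, and had the smallest unadjusted p of the 41 (0.00598; adjusted p = 0.179). In Gar1 and Polr1b the iPS lines themselves were 0.67 and 0.50 log2 apart. The largest positive differences were those of Mybbp1a at 0.37 log2 (0.18 on iPS 178B5 and 0.21 on iPS 492B4, against -0.18 on ES), Gnl2 at 0.31 log2 and Pes1 at 0.12 log2. In these 3 genes both iPS lines lay above the ES line. Fibroblast markers also differed between these arrays: 13 of 14 were lower in both iPS lines than in ES and the median of the iPS mean minus ES was -1.78 log2. Of the 58 ribosomal protein genes 34 were higher in both iPS lines than in ES, as were 6189 of all 19938 genes. The part of either in the result was not tested.

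**Figure D4:**
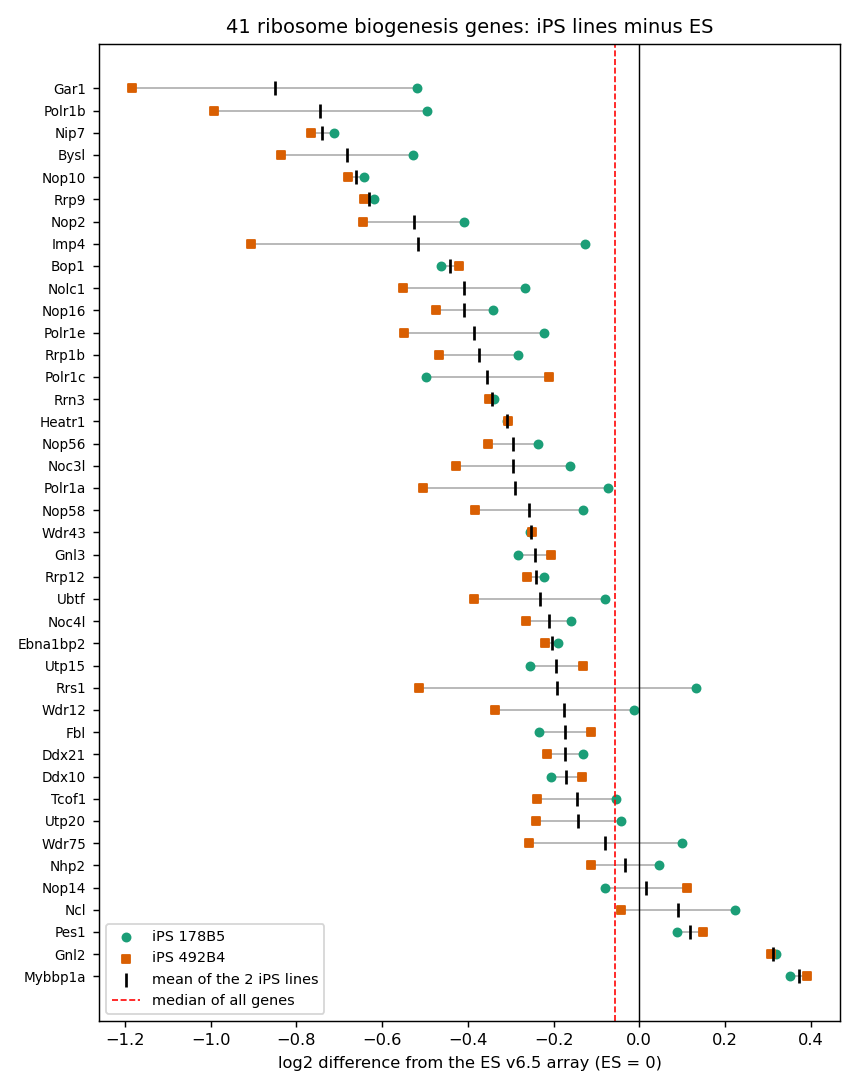
Log2 difference from the ES v6.5 array (horizontal axis, ES at 0) for the 41 genes, with iPS 178B5 as circles, iPS 492B4 as squares and their mean as a black bar; the dashed red line is the median of all genes. Most means lie left of the dashed line, down to -0.85 log2 in Gar1, and both iPS points of Pes1, Gnl2 and Mybbp1a lie right of 0.

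Between the iPS lines, 1 array each and with no test, iPS 492B4 was lower than iPS 178B5 for 30 of the 41 genes, where 53.1% of all genes were lower in it. The median difference, 492B4 minus 178B5, was -0.12 log2 (-0.10 log2 with equal array medians, -0.13 log2 with reference centring), against -0.02 log2 over all genes. It reached 0.5 log2 in size for 3 genes (7.32%, near the 6.96% of all genes): Imp4 (-0.39 on iPS 492B4 against 0.39 on iPS 178B5), Gar1 (-0.33 against 0.33) and Rrs1 (-0.26 against 0.39), a factor known in yeast to bring the 5S particle into the large subunit. All 3 were lower in iPS 492B4. Of the further lists, 20 of 47 small subunit and 23 of 53 large subunit genes were lower in iPS 492B4 than in iPS 178B5.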

How the data were processed

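The authors deposited 1 table of log-scale values, taken here as log2, for 28853 probe sets on 4 arrays; per the submitters' processing notes they came from GCRMA, whose version and log base the sources used here do not give. The median of every probe set over the arrays was 0 (within 5e-07), so a filter on dim probes was not possible. Of the probe sets, 21789 had 1 symbol in the platform annotation, 1621 several and 5443 none; those with 1 were averaged per gene.

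limma 3.58.1 in R 4.3.3 fitted all 19938 genes, with 2 residual degrees of freedom for the 3 lines against MEF and 1 in the 3-group fit. Calls needed an adjusted p under 0.05 and 1 log2. Cell lines served as replicates, so p-values measure only the spread between these samples, and the number of arrays limits the precision. The fits were tested on simulated data with few changed genes, unlike the real data. Alternatives were equal array medians, reference-gene centring, genes with 1 probe set, limma's robust moderation, no minimum difference and leaving out each line.

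Members and lists were chosen with earlier results of these data known. Values are given for called members, the extremes of each role and of the iPS contrasts, and up to 4 called genes of each other list.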

Additional observations from a re-analysis of the deposited data

How the results depend on the processing

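No paired analysis was possible because the labels give no replicate numbers that the groups share. For the lines against MEF, leaving out 1 line gave 5 to 29 ribosome biogenesis genes called higher, and 613 to 1981 higher and 744 to 2235 lower over all genes; the low ends, 5, 613 and 744, came without iPS 178B5. Each of these fits had 1 residual degree of freedom. With arrays centred on 13 reference genes the members' median was 1.06 log2 for the lines against MEF, 1.03 log2 for iPS against MEF and 1.15 log2 for ES against MEF, and 19 members were called for the lines (8 lost, 0 gained). That centring and equal array medians gave 1202 higher with 2555 lower, and 1700 with 1730, where 1576 and 1936 were called as deposited. With no minimum difference 3087 genes were higher and 3540 lower in iPS against MEF. In iPS against ES 15 genes were higher and 29 lower with equal array medians, and 13 and 29 with reference centring, 0 of them members. With Rplp0 left out of the reference genes, chosen after seeing the data, the members' medians were 1.02 log2 for the lines, 0.97 log2 for iPS and 1.13 log2 for ES against MEF, and 66 genes were higher and 112 lower in iPS against ES, 0 of them members. The cause was not tested. Of the reference genes 2 were called higher (Tfrc and Tbp) and 2 lower (Gusb and B2m), and their median was 0.02 log2 on iPS 178B5, 0.03 log2 on iPS 492B4 and 0.02 log2 on ES, against -0.18 log2 on MEF. For the lines against MEF, no member and no called gene named from the other lists reversed under the alternatives run. The named ribosomal protein genes were not part of this check.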

Other observations

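A few ribosomal protein genes stood apart from the rest of their list, chosen here after their values were seen. Rpl12 had -0.30 on iPS 178B5, 1.02 on iPS 492B4 and 0.30 on ES, against -1.25 on MEF (1.59 ± 0.66 log2, SD, n = 3 lines; limma adjusted p = 0.105). Rps3a1 had 0.84, 0.11 and -0.11, against -0.87 on MEF (1.15 ± 0.50 log2, adjusted p = 0.119). Rpl39l, a paralogue of Rpl39, had -0.24, 0.24 and 0.71, against -0.77 on MEF, and Rpl30 had -0.13, 0.13 and 1.25, against -0.63 on MEF; these 2 were the ribosomal protein genes called higher in ES against MEF, and neither was called for the 3 lines together. At the low end Rpl41 stood at -0.10 log2 and Rps20 at -0.10 log2. The lines disagreed with each other in the first 4 genes by more than in most members, and cross-hybridisation of near-identical copies was not examined.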
